A study of Mus musculus with 6 samples.

Results

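Regions of open chromatin that overlap a CpG island but lie outside the annotated promoters were examined in primary mouse lung fibroblasts. They were the regions whose detailed annotation begins with CpG and whose main annotation is an intron or intergenic sequence, in each of the 3 deposited tables. The table of plastic against 32 kPa held 1630 such regions among 64217 (2.54%). Of the regions listed as more accessible on 32 kPa than on 0.2 kPa, 72 of 2121 (3.39%) were of this kind, and of those listed as more accessible on plastic than on 0.2 kPa, 56 of 2114 (2.65%). No region of any table outside introns and intergenic sequence carried the label, so the rule took every region labelled CpG. The choice used location and annotation, and no measured value.

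The study measured chromatin accessibility by Omni-ATAC-seq, an assay whose transposase inserts sequencing adapters into DNA that is not covered by nucleosomes. GFP-positive fibroblasts were sorted from lungs of mice carrying a Col1a1-GFP transgene, so that cells with an active collagen I promoter were selected, and were otherwise untreated. They were seeded at 5000 cells per cm2 on tissue-culture plastic, on 32 kPa silicone (PDMS) or on 0.2 kPa PDMS, all coated with collagen I at 0.1 mg/mL, and kept for 8 days in 10% serum. Each culture gave 2 libraries of 50000 cells, 6 libraries in all. Age and sex of the mice were not given. The comparisons asked which regions differ in accessibility between soft and stiff growth surfaces. Every level given here is the authors' mean for a culture, in log2 normalised reads over a region, so neither single libraries nor their spread or depth can be shown. The labels do not say whether the 2 libraries per culture had separate animal sources. The p-values therefore reflect library-to-library spread, which may be technical.

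Fibroblast identity was checked at promoters. Of 10 fibroblast marker genes, 9 had an open promoter region (Lum had none), at levels of 3.42 to 6.15 with a median of 4.13. Of 11 mesothelial and epithelial markers, 1 had an open promoter region (level 4.15), as did 2 of 5 endothelial markers (3.05 and 3.45) and 0 of 6 leukocyte markers. Of all 18172 genes with an open region of any kind, 10965 had an open promoter region, at a median level of 5.45. None of the marker genes was assigned a CpG island region of the kind described here.

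CpG islands are stretches of DNA in which the CG dinucleotide, depleted from most of the mammalian genome by methylation and mutation, has been kept. Most mark promoters, where they are usually unmethylated and open in many cell types. Islands inside genes or between them include starts of unannotated or alternative transcripts, downstream parts of a promoter island, and elements bound by proteins that recognise unmethylated CpG or by Polycomb complexes.

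The sequences available for these regions are those of RefSeq promoters of the build GRCm38.p6, whose coordinates are those of mm10. A window of 250 bases before and 50 bases after a RefSeq start overlapped 139 of the 1630 regions (8.53%), and the start itself lay inside 111 (6.81%). The corresponding share with a start inside was 62.8% of promoter regions, 0.329% of other intronic regions and 0.807% of other intergenic regions. Regions called distal by the deposited annotation included a number that hold a RefSeq start. The stretches below are the bases before such a start that lie inside regions listed as more accessible on a stiffer culture. They run 5′ to 3′ along the gene's strand, with each CG dinucleotide in capitals, and show how dense CG is at these sites. The first 5 belong to regions listed on 32 kPa that the authors' annotation placed near Kif7, Hnrnpd, Eif2ak1, Gtdc1 and Wnt7b.
Kif7, chr7:79715708-79715943, minus strand: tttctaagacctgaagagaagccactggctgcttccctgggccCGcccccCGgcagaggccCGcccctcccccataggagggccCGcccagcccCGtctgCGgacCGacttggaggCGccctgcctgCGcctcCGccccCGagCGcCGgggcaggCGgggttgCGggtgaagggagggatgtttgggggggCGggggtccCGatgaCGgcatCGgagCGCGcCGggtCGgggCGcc
Vamp9, chr5:99906044-99906264, plus strand: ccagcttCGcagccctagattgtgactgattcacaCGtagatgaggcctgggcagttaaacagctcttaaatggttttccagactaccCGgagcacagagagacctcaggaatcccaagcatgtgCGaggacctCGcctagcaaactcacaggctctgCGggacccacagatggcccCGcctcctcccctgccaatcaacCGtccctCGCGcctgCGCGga
Eif2ak1, chr5:143817594-143817791, plus strand: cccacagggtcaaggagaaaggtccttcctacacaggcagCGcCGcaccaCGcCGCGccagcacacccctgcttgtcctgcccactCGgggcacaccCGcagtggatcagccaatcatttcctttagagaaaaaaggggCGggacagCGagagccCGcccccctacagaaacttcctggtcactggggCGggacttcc
Gtdc1, chr2:44927237-44927450, minus strand: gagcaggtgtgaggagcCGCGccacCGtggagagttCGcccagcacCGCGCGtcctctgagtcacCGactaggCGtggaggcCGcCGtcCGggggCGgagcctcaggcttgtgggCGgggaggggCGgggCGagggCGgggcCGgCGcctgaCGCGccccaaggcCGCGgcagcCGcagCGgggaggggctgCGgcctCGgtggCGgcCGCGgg
D130051D11Rik, chr15:85634404-85634595, plus strand: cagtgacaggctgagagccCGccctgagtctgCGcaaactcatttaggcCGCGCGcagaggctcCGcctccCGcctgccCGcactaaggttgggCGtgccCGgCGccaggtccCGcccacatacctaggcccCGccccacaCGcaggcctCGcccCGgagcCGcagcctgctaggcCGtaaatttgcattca

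The Kif7 stretch held 24 CG in 236 bases, with 75.4% G or C and an observed over expected CG ratio of 0.717. The ratio compares the number of CG with that expected from the counts of C and G. The Vamp9 stretch, in the region 72.6 kb from the start of Hnrnpd, held 12 CG in 221 bases (ratio 0.646). The Gtdc1 stretch held 30 CG in 214 bases (ratio 0.926). Across the 15 stretches found in listed regions, of 76 to 250 bases, the number of CG ran from 7 to 35 and the ratio from 0.571 to 1.11.

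A further 4 stretches belong to regions listed on plastic. The Sgms2 stretch lies in the region assigned to Papss1 and has the most CG of the 15, with 35 in 244 bases (ratio 0.983). The others lie on chromosome 12, in regions assigned to Hpcal1, 5730507C01Rik and 9030624G23Rik that are 191, 873 and 296 kb from the annotated starts.
Sgms2, chr3:131490231-131490474, minus strand: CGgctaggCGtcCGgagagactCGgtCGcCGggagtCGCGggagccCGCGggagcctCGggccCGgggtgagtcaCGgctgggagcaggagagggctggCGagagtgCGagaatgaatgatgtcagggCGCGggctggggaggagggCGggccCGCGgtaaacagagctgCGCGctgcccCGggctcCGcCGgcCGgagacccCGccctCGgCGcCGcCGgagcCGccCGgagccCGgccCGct
Gm9222, chr12:17881623-17881872, plus strand: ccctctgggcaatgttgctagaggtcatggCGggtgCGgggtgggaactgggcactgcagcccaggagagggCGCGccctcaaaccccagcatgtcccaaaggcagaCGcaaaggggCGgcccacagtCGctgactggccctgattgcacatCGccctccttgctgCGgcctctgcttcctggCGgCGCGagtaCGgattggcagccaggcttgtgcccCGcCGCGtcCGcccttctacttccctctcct
Gm5784, chr12:19387659-19387869, plus strand: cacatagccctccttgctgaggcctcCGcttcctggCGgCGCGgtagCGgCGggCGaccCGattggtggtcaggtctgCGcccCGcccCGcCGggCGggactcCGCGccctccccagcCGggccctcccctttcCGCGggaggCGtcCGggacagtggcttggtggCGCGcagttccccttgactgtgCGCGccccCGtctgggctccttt
Gm38699, chr12:23800956-23801162, minus strand: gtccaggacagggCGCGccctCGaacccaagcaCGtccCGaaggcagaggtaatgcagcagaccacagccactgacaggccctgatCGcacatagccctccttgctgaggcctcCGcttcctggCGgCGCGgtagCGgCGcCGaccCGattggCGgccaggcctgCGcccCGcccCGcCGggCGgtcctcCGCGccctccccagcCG

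The stretches of Gm5784 and Gm38699 share an identical run of 52 bases, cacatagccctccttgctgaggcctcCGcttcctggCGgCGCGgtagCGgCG, and 32.1% of the 12-base words of the shorter one. Among the 105 pairs of the 15 stretches, this was the 1 pair with a shared run of 20 bases or more. The Gm9222 stretch shares runs of 16 bases with each of them. Reads were 51 bp long, and the sources used here do not say how reads matching several places were counted. Levels at these sites, and at any other sites of repeated sequence, are therefore uncertain. Regions without such a stretch were not checked for shared sequence.

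RefSeq windows whose start lay inside a CpG island region were about as rich in CG as those of annotated promoters. Over the full 300 bases, the median was 23 CG with 63.7% G or C and a ratio of 0.772 in 125 windows starting in these regions. It was 23 CG with 62.5% G or C and a ratio of 0.807 in 9408 windows starting in promoter regions, and 6 CG with a ratio of 0.315 in 301 windows starting in other intronic or intergenic regions. The letters GGGCGG, the GC box bound by SP and KLF factors, occurred on either strand in 61.6% of the windows starting in CpG island regions, 72.0% of those starting in promoter regions and 35.6% of all 32817 RefSeq windows. The letters TGANTCA, with any base in the middle, were used as a loose form of the AP-1 site. They occurred in 8.0% of the windows in CpG island regions (10 of 125) and 4.36% of those in promoter regions. The shares were 20.3% in other intronic or intergenic regions and 7.81% of all windows. For CCGGAA (ETS factors) the shares were 24.0% in CpG island regions, 32.5% in promoter regions and 14.9% of all windows. In the same order they were 7.2%, 7.51% and 3.57% for GCATGCG (NRF1), 16.0%, 10.9% and 14.7% for GGAATG (TEAD), and 11.2%, 11.3% and 16.8% for TGTGGT (RUNX). The windows are those of the 6.81% of regions with a RefSeq start, and the CG content of the remaining regions was not analysed here. CpG island regions were chosen by a CpG label that the other intronic or intergenic regions lack. Their richness in CG over those regions was therefore largely set by the choice, and so were shares of letters that contain CG.

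CpG island regions away from promoters lay more often in introns than between genes, and 46.4% of them lay in an intron within 1 kb of a start. The authors' annotation placed 1056 of the 1630 (64.8%) in introns and 574 (35.2%) between genes. Of the intronic regions, 899 (85.1%) were in the first intron and 756 (71.6%) within 1 kb downstream of the start. The smallest distance was 101 bases for intronic and 1009 bases for intergenic regions. Beyond those 756, 444 of the 1630 (27.2%) lay at 1 to 10 kb, 362 (22.2%) at 10 to 100 kb and 68 (4.17%) beyond 100 kb. The median distance was 500 bases for intronic and 15662 bases for intergenic regions.

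**Figure D1:**
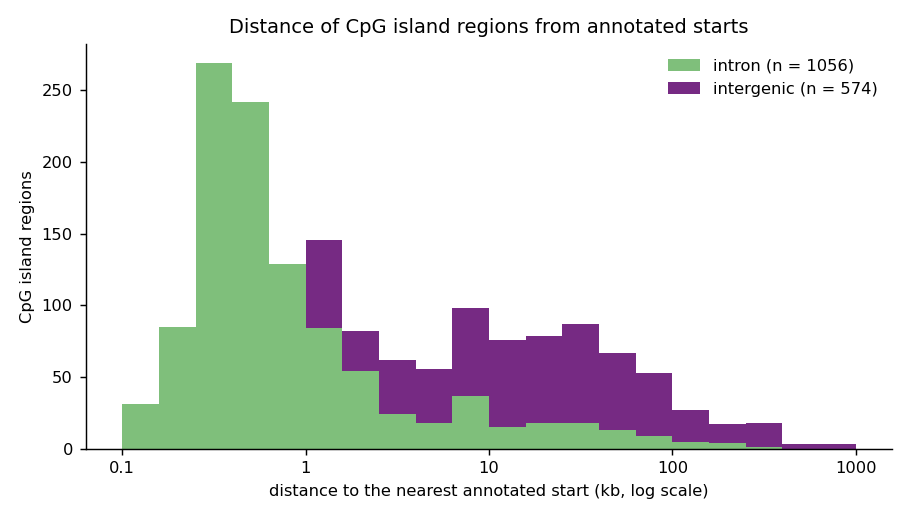
Number of CpG island regions of the plastic against 32 kPa table by distance to the nearest annotated start (kb, log scale), stacked by location in an intron (n = 1056) or between genes (n = 574). The intronic regions pile up below 1 kb and the intergenic ones spread between 1 and 100 kb.

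An open promoter region lay within 1000 bases of 672 CpG island regions (41.2%). This held for 641 intronic ones (60.7%) and 31 intergenic ones (5.4%), against 3.0% of other intronic and 0.428% of other intergenic regions. Just outside the border of the promoter class, CpG island regions over 100 and up to 200 bases downstream of a start (n = 56) had a median level of 4.95, and promoter regions 1 to 100 bases downstream (n = 2533) one of 5.21. On the upstream side, CpG island regions over 1000 and up to 2000 bases away (n = 95) had a median of 4.95 and promoter regions over 500 and up to 1000 bases away (n = 786) one of 4.50. The regions were assigned to 1429 genes, of which 1272 had 1 such region, 129 had 2, 17 had 3 and 11 had 4 or more. Protein-coding genes took 1479 of the regions (90.7%) and non-coding RNA genes 133.

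CpG island regions were open at levels between those of promoters and of other distal regions. Their median level over plastic and 32 kPa was 4.60 (interquartile range over regions 3.90 to 5.45), against 5.28 for promoters, 4.02 for other introns, 3.96 for other intergenic regions and 4.2 for all regions. Of the 1630, 1048 (64.3%) lay above the median of all regions and 604 (37.1%) above its upper quartile. The deposited level is a sum over the region, and the regions differed in length, with medians of 193 bases for CpG island regions, 255 for promoters and 177 for all regions. Per 100 bases, the median level was 3.71 for CpG island regions, 3.92 for promoters, 3.36 for other introns and 3.32 for other intergenic regions, again on the log2 scale. The order was thus the same per length. Among regions of 200 to below 300 bases, the medians per 100 bases were 3.85 at CpG islands, 3.97 at promoters, 3.49 in other introns and 3.44 in other intergenic sequence. These are descriptions of regions, with no test, since regions are not replicates.

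**Figure D2:**
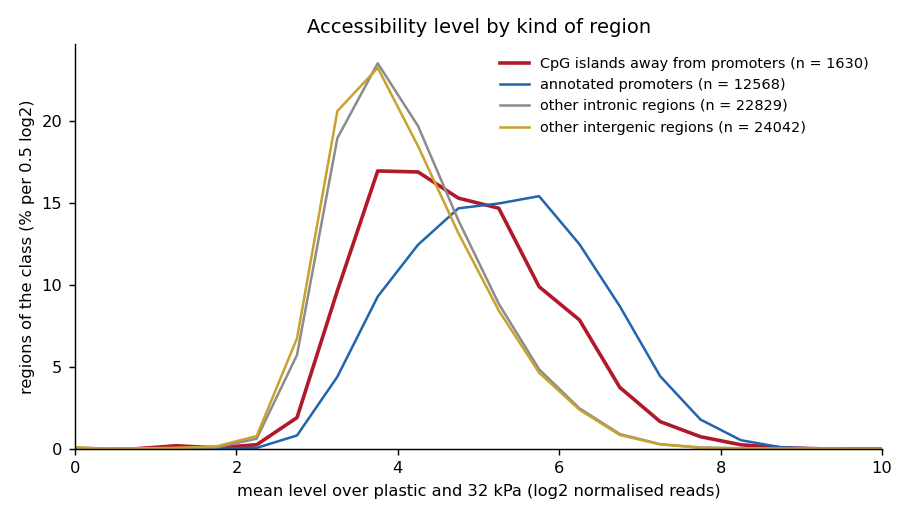
Distribution of the mean level over plastic and 32 kPa (log2 normalised reads, x axis) as a percent of each kind of region per 0.5 log2 (y axis). CpG island regions away from promoters, with a median of 4.60, lie between other intronic and intergenic regions (4.02 and 3.96) and annotated promoters (5.28).

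Within 1 kb of the annotated start the median level was 4.31 for CpG island regions and 4.17 for other intronic regions. At 1 to 10 kb it was 4.90 for CpG island regions and 4.10 for other intronic or intergenic ones. At 10 to 100 kb the values were 4.92 and 3.98, and beyond 100 kb 4.74 and 3.88. Median lengths also differed, at 167.5 bases within 1 kb and 232.5 bases at 10 to 100 kb for the CpG island regions. Per 100 bases, the median level of the CpG island regions was 3.62 within 1 kb, 3.85 at 1 to 10 kb, 3.70 at 10 to 100 kb and 3.57 beyond. That of the other intronic or intergenic regions was 3.60, 3.49, 3.33 and 3.24 over the same distances.

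Islands between genes had a median level of 5.0 over a median length of 230 bases, and those in introns one of 4.44 over 176 bases, so that per 100 bases the medians came to 3.78 and 3.67. Islands with an open promoter region within 1000 bases had a median level of 4.33, and those without one 4.88, which per 100 bases left 3.68 and 3.74. A RefSeq start inside the region went with a median level of 5.70 (n = 111), against 4.53 without (n = 1519). Per 100 bases these were 3.92 with a start and 3.70 without, the median lengths being 347 and 186 bases.

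The regions of highest level were near regulatory genes and near genes with little described function. The highest was 300 bases downstream of the start of Sfi1, coding for a centrin-binding protein, with 8.60 on plastic and 8.63 on 32 kPa over 581 bases. A region 55.2 kb downstream of the start of Gm21119 followed (8.47 on plastic, 8.51 on 32 kPa), then one upstream of Catspere2, named for a sperm calcium-channel subunit (8.27 on plastic, 8.31 on 32 kPa). A region 2.06 kb upstream of Nr4a3, an orphan nuclear receptor gene induced early by many stimuli, spanned 819 bases with 7.99 on plastic and 8.19 on 32 kPa. Others of the highest 10 were near Zfp958 (8.03), Mnt (7.84), a MAX partner that opposes MYC, Chd9 (7.82), Tnks1bp1 (7.78), and Kat6b (7.77), a histone acetyltransferase gene. The longest region, 882 bases, was in the first intron of Gt(ROSA)26Sor, the locus used for ubiquitous transgenes in mice, at a level of 7.51. Tnks1bp1 (871 bases), Nr4a3 (819), Nlrp4f (811) and Tmem192 (787) came next in length. The 5 regions farthest from a start were all on chromosome 12, with 3 assigned to 5730507C01Rik at 873, 774 and 661 kb and 2 to 1700030C10Rik at 619 kb. The lowest levels were -0.18 near 1700030C10Rik, 1.22 near Gm21119, 1.48 in Gsdme, 1.49 near Ywhaq and 1.77 near Gm5796. The value of -0.18 was also the lowest in every other class of region, and so appears to be the floor of the deposited levels. Gm21119 thus had regions at both ends of the range. Of these 10 highest, the regions at Mnt, Chd9 and Tnks1bp1 were also listed as more accessible on 32 kPa than on 0.2 kPa.

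On 32 kPa, 72 CpG island regions were listed as more accessible than on 0.2 kPa in the authors' deposited table. The table lists only regions with a fold of 1 or more on the log2 scale and an FDR of 0.05 or less, all higher on 32 kPa, so the direction is fixed by the list. The median fold was 1.10 (interquartile range 1.04 to 1.17, highest 1.38), against 1.12 over all 2121 listed regions. An FDR of 0.01 or less was reached by 32 of the 72 (44.4%) and by 33.0% of all listed regions in the authors' deposited table. The levels of the 72 ran from 5.14 to 8.07 on 32 kPa with a median of 6.22, and from 3.8 to 6.97 on 0.2 kPa with a median of 5.15.

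Listing needs a high enough level, so the count was set against regions that could be listed. Among regions of the plastic against 32 kPa table that reached the lowest listed level on 32 kPa (4.97), 71 of 630 CpG island regions overlapped a listed region (11.3%), against 12.5% of all 17026. The share was 13% of promoters, 12.8% of other introns and 11.7% of other intergenic regions. The 95% exact binomial interval of 8.91 to 14 covers counting error only. It treats regions of the same libraries as independent, which they are not, and so was not used as a test. By value alone, the CpG island share was near the background. It was 12% for the intronic and 10.5% for the intergenic islands. Over all regions of the table, whatever their level, the share was 4.36% of CpG island regions and 3.31% of all regions, so the order of the 2 depended on the limit on level.

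The largest fold belonged to the Kif7 region whose sequence is given above, 1.62 kb from the annotated start. Kif7 is a ciliary kinesin that regulates Hedgehog signalling. Its level was 5.70 on 32 kPa and 4.32 on 0.2 kPa (fold 1.38, FDR = 0.01 in the authors' deposited table). The next was in the first intron of Rbbp8, which codes for the DNA end-resection factor CtIP, with 5.16 on 32 kPa and 3.8 on 0.2 kPa (fold 1.36, FDR = 0.0256 in the authors' deposited table). A region 9.40 kb upstream of Scd2 (mm10 chr19:44284114-44284440), a stearoyl-CoA desaturase gene of unsaturated lipid synthesis, had 6.21 on 32 kPa and 4.89 on 0.2 kPa (fold 1.32, FDR = 0.00852 in the authors' deposited table).

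The regions assigned to Hnrnpu, Hnrnpd and Chd9 were also among the 20 largest folds. An intronic region of Hnrnpu (chr1:178336434-178336771), a nuclear ribonucleoprotein, stood at 6.02 on 32 kPa and 4.69 on 0.2 kPa (fold 1.32, FDR = 0.00859 in the authors' deposited table). The region assigned to Hnrnpd, which binds AU-rich mRNAs, was 72.6 kb away from that gene and holds the start of Vamp9. Its level was 7.53 on 32 kPa and 6.26 on 0.2 kPa (fold 1.28, FDR = 0.000818 in the authors' deposited table). Chd9 codes for a chromodomain helicase of chromatin. Its region 23.9 kb upstream of the annotated start (chr8:90908073-90908606), in an intron, stood at 7.94 on 32 kPa and 6.72 on 0.2 kPa (fold 1.22, FDR = 0.000232 in the authors' deposited table). No listed region of any kind had a lower FDR on 32 kPa, although another had a lower p.

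An intronic region of Vcan (chr13:89739345-89739613), coding for the proteoglycan versican, had 5.95 on 32 kPa and 4.64 on 0.2 kPa (fold 1.31, FDR = 0.0114 in the authors' deposited table). A first-intron region of Tgfb1 (chr7:25689287-25689532), the gene of the cytokine TGF-beta 1, stood at 5.91 on 32 kPa and 4.73 on 0.2 kPa (fold 1.18, FDR = 0.0151 in the authors' deposited table). Intronic sequence of the tumour suppressor gene Trp53 had 5.39 on 32 kPa and 4.22 on 0.2 kPa (fold 1.17, FDR = 0.0466 in the authors' deposited table). The region 1.13 kb upstream of Tob1, a growth inhibitor of the BTG/Tob family, had 5.18 on 32 kPa and 4.0 on 0.2 kPa (fold 1.18, FDR = 0.047 in the authors' deposited table). The region holding a RefSeq start of Eif2ak1, the haem-regulated kinase of eIF2alpha, had 6.18 on 32 kPa and 4.94 on 0.2 kPa (fold 1.25, FDR = 0.00678 in the authors' deposited table). The other 9 of the 20 largest folds lay at Zcchc14, Osbpl6, Amd2, Tiam2, Actl6a, 5730507C01Rik, Zfp335, Cops3 and Hipk3, between 1.17 and 1.23 in the authors' deposited table. Actl6a codes for a subunit of the BAF chromatin remodeller, Amd2 for an enzyme of polyamine synthesis, Tiam2 for an activator of RAC and Cops3 for a COP9 signalosome subunit.

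At the overlapping regions of the plastic against 32 kPa table, the plastic level exceeded the 0.2 kPa level by 0.52 to 1.71 at these 72 regions, with a median of 0.93. The same held for 2115 of the 2117 listed regions of all kinds that could be matched, with a median of 0.95. The regions were listed for a low level on 0.2 kPa, and both differences share those libraries, so the plastic level is no independent evidence. At Kif7 the plastic level was 5.37, at Chd9 7.69, at Hnrnpu 5.56 and at Scd2 6.60, of which only that of Scd2 was above the 32 kPa level.

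**Figure D3:**
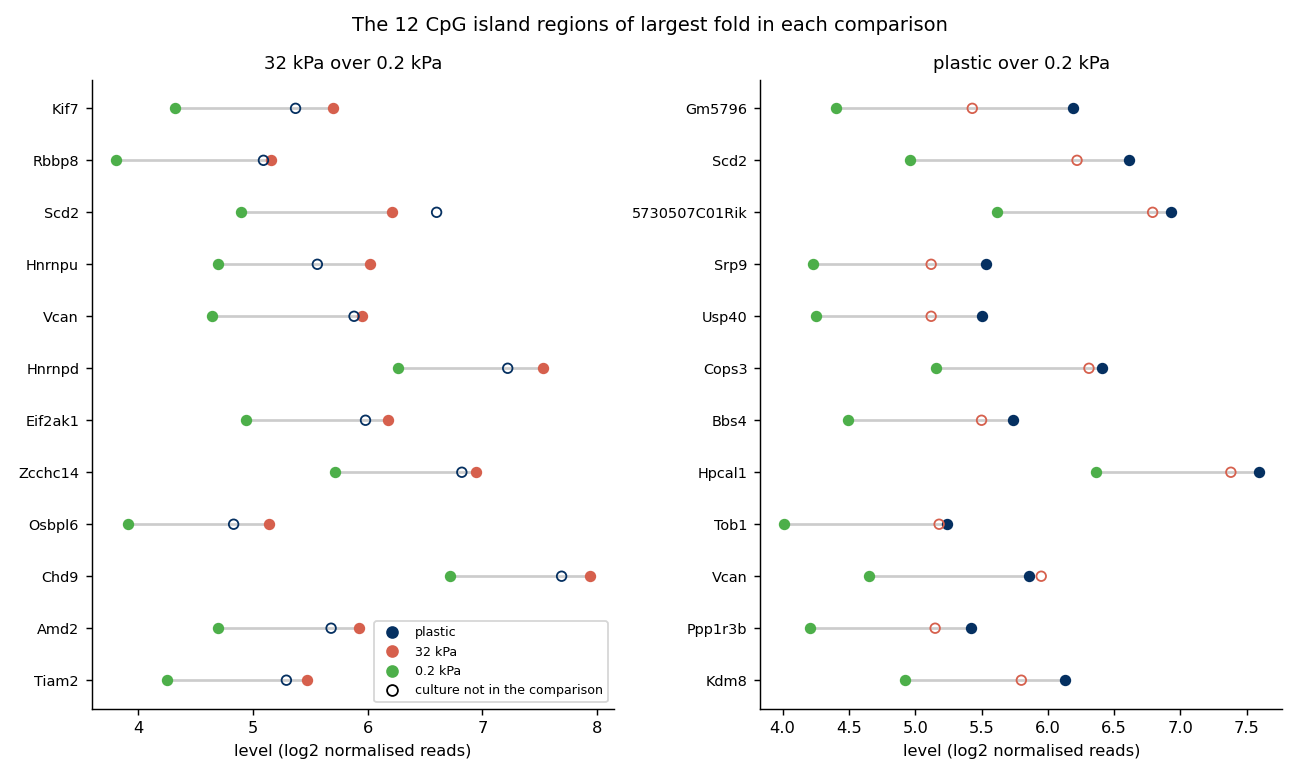
Levels (log2 normalised reads) of the 12 CpG island regions with the largest listed fold, for 32 kPa over 0.2 kPa (left) and plastic over 0.2 kPa (right), named by assigned gene. Filled points are the cultures compared, joined by a line, and open points the remaining stiffer culture, which lies above the 0.2 kPa point in every row.

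On plastic, 56 CpG island regions were listed as more accessible than on 0.2 kPa in the authors' deposited table. They were led by regions far from the starts of Gm5796 and 5730507C01Rik and by a region upstream of Scd2. None of these was checked for shared sequence. Over the 56 regions, the median fold was 1.10 (interquartile range 1.03 to 1.17, highest 1.79), against 1.12 over all 2114 listed regions. An FDR of 0.01 or less was reached by 19 (33.9%), against 32.7% of all. Levels ran from 5.10 to 7.59 on plastic with a median of 5.96, and from 3.95 to 6.36 on 0.2 kPa with a median of 4.88. Among regions reaching the lowest listed level on plastic (4.94), 55 of 668 CpG island regions overlapped a listed region (8.23%, exact binomial interval 6.26 to 10.6), against 11.7% of all 18002. Promoters had 10.8%, other introns 12.9% and other intergenic regions 13.2%. Among regions reaching that level the share of CpG island regions was thus below that of all regions. Over the whole table, whatever the level, it was 3.37% of CpG island regions and 3.3% of all. The differences were not tested, since regions of the same libraries are not replicates.

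The region with the largest fold was 86.7 kb from the start of Gm5796 (chr14:4110557-4110761), with 6.19 on plastic and 4.40 on 0.2 kPa (fold 1.79, FDR = 0.000229 in the authors' deposited table). Scd2 followed at the site already described, with 6.61 on plastic and 4.96 on 0.2 kPa (fold 1.66, FDR = 1.29e-05 in the authors' deposited table). A region 774 kb from 5730507C01Rik (chr12:19288277-19288622) had 6.93 on plastic and 5.62 on 0.2 kPa (fold 1.31, FDR = 0.000148 in the authors' deposited table). The region holding the start of Gm9222, assigned to Hpcal1 (chr12:17881612-17882009), had 7.59 on plastic and 6.36 on 0.2 kPa (fold 1.23, FDR = 9.2e-06 in the authors' deposited table). That FDR was the lowest among the 56. The region 774 kb from 5730507C01Rik shares the 17 to 25 Mb stretch of chromosome 12 with the Gm5784 and Gm38699 sequences. How reads matching several places were counted is not known, so levels at any of these regions of repeated sequence are uncertain.

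Smaller folds followed at Srp9, Usp40, Bbs4 and Vcan. Srp9, part of the signal recognition particle, had a first-intron region (chr1:182125121-182125331) at 5.53 on plastic and 4.23 on 0.2 kPa (fold 1.30, FDR = 0.014 in the authors' deposited table). Usp40, a deubiquitinase gene, had 5.5 on plastic and 4.25 on 0.2 kPa (fold 1.26, FDR = 0.0199 in the authors' deposited table). Bbs4, a subunit of the ciliary BBSome, had 5.74 on plastic and 4.49 on 0.2 kPa (fold 1.24, FDR = 0.0158 in the authors' deposited table). Both of these regions hold the RefSeq start of their own gene. Vcan stood at 5.86 on plastic and 4.65 on 0.2 kPa (fold 1.21, FDR = 0.00984 in the authors' deposited table), at the intronic site listed on 32 kPa. Others of the 20 largest folds lay at Cops3, Tob1, Ppp1r3b, Kdm8, Prpf4b, 9030624G23Rik, LOC100861615, Rbbp8, Zbtb2, Zcchc14 and Foxp4, between 1.13 and 1.25 in the authors' deposited table. Ppp1r3b targets protein phosphatase 1 to glycogen, Prpf4b is a kinase of the splicing machinery and Foxp4 a forkhead transcription factor.

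The 32 kPa level of the overlapping region exceeded the 0.2 kPa level by 0.44 to 1.34 at the 56 regions, with a median of 0.97. Over the 2102 listed regions of all kinds that could be matched, it did so at 2099, with a median of 0.95, and the shared 0.2 kPa libraries again make this no independent evidence. Side by side, the Scd2 site had folds of 1.32 on 32 kPa and 1.66 on plastic, the Vcan site 1.31 and 1.21, the Cops3 site 1.18 and 1.25, and the Rbbp8 site 1.36 and 1.15, in the authors' deposited tables.

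Listing depended on level, and on 32 kPa the most accessible islands were listed most often. At levels of 7 and over on 32 kPa, 16 of 46 CpG island regions overlapped a listed region (34.8%, exact binomial interval 21.4 to 50.2), against 20.8% of all regions and 21.3% of promoters. At 5.5 to 6 it was 8.18% of CpG island regions and 14.5% of all. On plastic, at levels of 7 and over, it was 3 of 42 (7.14%, interval 1.5 to 19.5), against 10.0% of all regions and 10.8% of promoters. The level is part of the fold that decides the listing, and these shares were not tested. By distance, the share on 32 kPa was 9.63% within 1 kb, 12.9% at 1 to 10 kb, 11.1% at 10 to 100 kb and 12.9% beyond. For other intronic or intergenic regions it was 8.11%, 12.2%, 12.5% and 12.1% over the same distances. On plastic the CpG island shares were 9.09%, 6.28%, 7.73% and 18.2% in that order, the last being 6 of 33 regions, against 7.46%, 10.8%, 12.8% and 16.7% of the other regions.

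**Figure D4:**
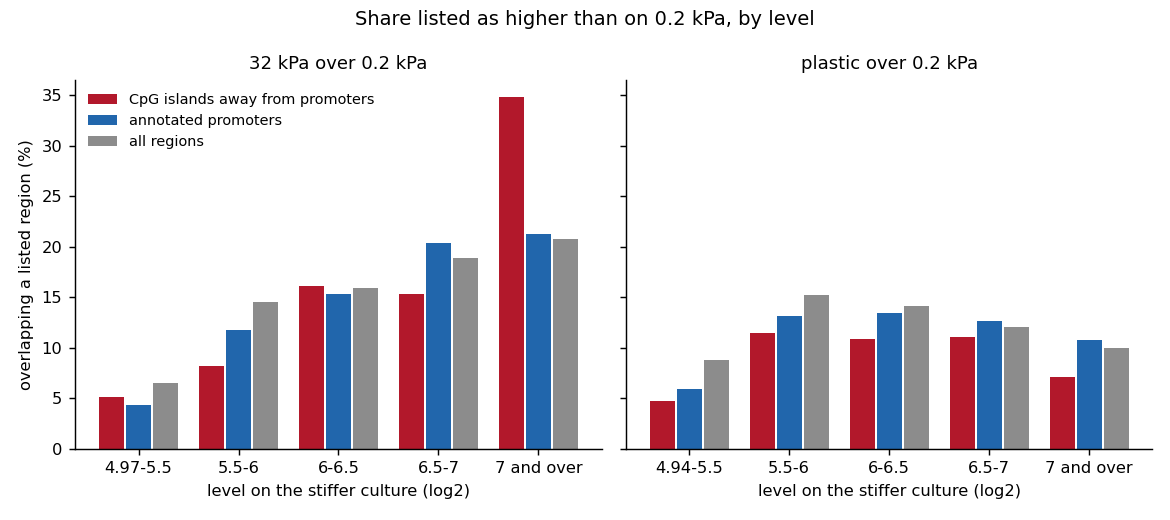
Percent of regions overlapping a listed region (y axis), by level on the stiffer culture in log2 normalised reads (x axis), for CpG islands away from promoters, annotated promoters and all regions, with 32 kPa over 0.2 kPa on the left and plastic over 0.2 kPa on the right. At 7 and over the CpG island bar stands at 34.8% (16 of 46) on 32 kPa and at 7.14% (3 of 42) on plastic.

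Between plastic and 32 kPa, no CpG island region differed past the authors' threshold. The count at an FDR of 0.05 or less was 0 of 1630, as it was 0 of all 64217 regions (0%), every FDR in the authors' deposited table being 1. At an unadjusted p of 0.05 or less, 5 CpG island regions (0.307%) and 370 of all regions (0.576%) were found. The fold, plastic minus 32 kPa, had a median of 0.04 over CpG island regions (interquartile range -0.16 to 0.27) and of 0.05 over all regions (-0.19 to 0.33). A fold of 1 or more in either direction was seen at 38 CpG island regions (2.33%) and 4.68% of all regions. Below a level of 4, the interquartile range of the fold was 0.74 wide for CpG island regions and 0.79 for all, and at 6 to 7 it was 0.22 and 0.24 wide.

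The 5 regions of lowest p included 3 that were higher on plastic. They lay in Gm21119 (4.76 on plastic, 3.39 on 32 kPa, p = 0.0209 in the authors' deposited DiffBind table), near Vmn2r86, a vomeronasal receptor gene (4.23 on plastic, 2.82 on 32 kPa, p = 0.0416), and near Gm5535 (4.44 on plastic, 3.20 on 32 kPa, p = 0.0453). A region 43.0 kb from Cox20, a cytochrome c oxidase assembly gene, was lower on plastic, at 2.61 on plastic and 4.23 on 32 kPa (p = 0.0215 in the authors' deposited DiffBind table). So was a region 31.4 kb from Zmat3, at 6.73 on plastic and 7.28 on 32 kPa (p = 0.0243 in the authors' deposited DiffBind table), and it alone of the 5 had a mean level above 5. None of the 5 passed the FDR threshold.

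**Figure D5:**
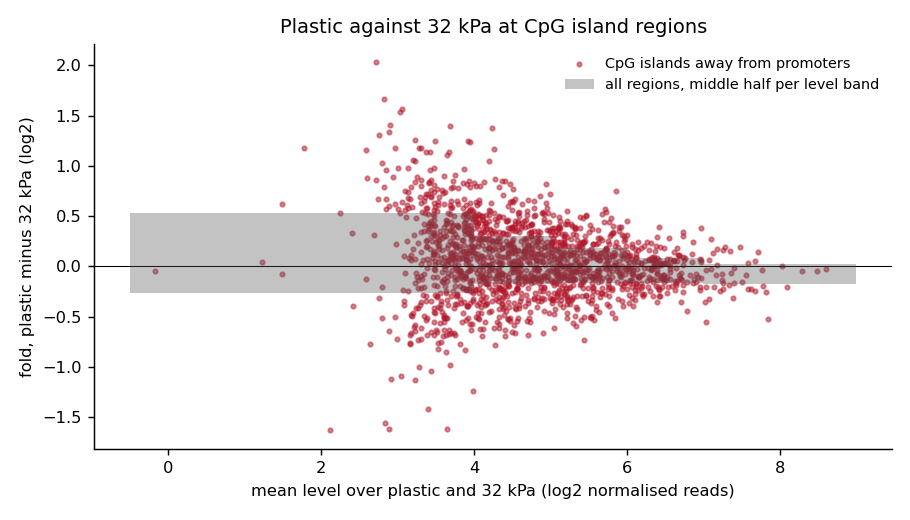
Fold between plastic and 32 kPa (plastic minus 32 kPa, log2, y axis) against the mean level over both (log2 normalised reads, x axis) for each of the 1630 CpG island regions. Grey bands give the interquartile range of all regions in 5 bands of level, 0.79 wide below 4 and 0.19 wide at 7 and over.

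Genes of named pathways were grouped by lists drawn up with earlier results of these data known. Of 83 lung mesenchyme and body wall transcription factor genes with an open region, 20 had a CpG island region away from the promoter, 26 regions in all (3.96% of the list's regions, against 2.54% overall). The most accessible were at Glis2 (7.24), Klf10 (7.08) and Id4 (6.56). Of the 26, those of Id1 and Id4, inhibitors of basic helix-loop-helix factors, were listed on 32 kPa and that of Id4 on plastic. Homeobox genes had 18 regions in 18 of 120 genes, at levels of 2.42 to 6.07, with Tgif1 (6.07), Pbx3 (5.74) and Nkx6-1 (5.70) highest, and 0 listed in either comparison. Of all CpG island regions, whatever their level, 4.36% overlapped a region listed on 32 kPa and 3.37% one listed on plastic. With so few regions per list, a count of 0 here or in the lists below lies near these shares.

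Polycomb, DNA methylation and CpG-binding genes had the largest share, with 9 of the 133 regions of the list (6.77%), in 8 of 37 genes. Cxxc5, whose protein binds unmethylated CpG, was highest (5.68), then Mbd3, a subunit of the NuRD complex (5.39). None of the 9 was listed on 32 kPa or plastic, against 4.36% and 3.37% of all CpG island regions, so 0 of 9 is near the background. Imprinted genes had 5 regions in 5 of 41 genes, at Impact (6.51), Peg3 (5.77), Inpp5f (4.37), Ascl2 (4.2) and Grb10 (4.10). The Impact region, in an intron of a gene expressed from the paternal allele, had 6.56 on 32 kPa and 5.56 on 0.2 kPa (fold 1.0, FDR = 0.0116 in the authors' deposited table). The other 4 were not listed, as was the case for most CpG island regions.

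Matrix genes had a share of such regions below the 2.54% of all regions, and the contractile and YAP lists had shares nearer to it. Matrix and TGF-beta genes had 6 among 580 regions (1.03%), at Tgfb1 (5.93), Vcan (5.92), Smad6 (5.76), Ltbp4 (5.63), Ccn1 (5.49) and Fbln2 (4.26). Tgfb1 and Vcan were listed on 32 kPa and Vcan on plastic. Contractile and cytoskeletal genes had 6 among 326 (1.84%), the highest at Cnn3 (5.85) and Actb (5.47), and 0 were listed in either comparison. Genes of the YAP, TAZ and TEAD list had 6 among 227 (2.64%), led by Fat1 (6.52), a cadherin gene, and Tead3 (6.14), again with 0 listed. Beside the 4.36% and 3.37% of all CpG island regions listed on 32 kPa and plastic, 0 of 6 is near the background. The mesothelial and epithelial list and the endothelial, leukocyte and mural list had 0 each, among 41 and 70 regions. These are too few regions to set apart from a share of 2.54%. None of the regions of these lists reached an unadjusted p of 0.05 between plastic and 32 kPa.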

How the data were processed

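Omni-ATAC-seq libraries were grouped by the culture in their labels, 2 per culture. Tools named in the submitters' processing notes are BWA, Picard, MACS2 and DiffBind, with mm10 as the build; no source used here gives settings, transposase shift or scaling. Per the file headers, the deposited levels are log2 means of normalised reads per culture, folds are log2 differences, and the p-value and FDR are the authors' over all regions they tested. Depth and per-library values are unknown. Gene, distance and location are the authors' annotation.

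In the tables against 0.2 kPa the sides are called Control and Treat. At 643 intervals shared with the table of plastic against 32 kPa, Control equalled the 32 kPa level, and at 653 it was higher than the plastic level by 0.01 to 0.02, so Control was taken to be the stiffer surface. Starts 1 base lower in the table of plastic against 0.2 kPa were aligned, and 1 repeated header row was dropped.

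No test was added to the authors'. Regions were matched between tables by an overlap of at least 1 base, checked on simulated intervals. Exact Clopper-Pearson 95% intervals cover counting error only, treat regions as independent and were not used as tests. Background shares were taken over regions reaching the lowest listed level. RefSeq windows of GRCm38.p6 replaced region sequences, as no genome was used here. The regions named were the 20 of largest fold per comparison with 0.2 kPa, the 5 of lowest p between plastic and 32 kPa, the 10 highest, 5 lowest, 5 longest and 5 farthest, and up to 3 of highest level per gene list. Some regions this rule selects are not reported here. The regions and lists were chosen with earlier results of these data known. Alternatives were other limits on FDR, distance, overlap, level, annotation and sex chromosomes. Tables were read with pandas 2.3.3 and numpy 2.4.6 under Python 3.11.15, intervals came from scipy 1.17.1 and plots from matplotlib 3.10.9.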

Additional observations from a re-analysis of the deposited data

How the results depend on the processing

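The FDR limit and the distance to the start moved the counts most. At an FDR of 0.01 or less, 32 of 72 CpG island regions were left on 32 kPa and 19 of 56 on plastic. At least 1 kb from the start, 52 were left on 32 kPa and 34 on plastic, and at 5 kb 28 and 22. Over all 1630 regions of the table, whatever their level, the listed share was 4.36% for 32 kPa and 3.37% for plastic, against 3.31% and 3.3% of all regions. On that denominator the CpG island share was above that of all regions on 32 kPa and about equal to it on plastic. Among regions reaching the lowest listed level it was below that of all regions in both comparisons. An overlap of 50% of both lengths gave 11.1% and 8.08%. The median fold of plastic minus 32 kPa was 0.06 at least 5 kb from the start and 0.00 among regions above the median level of all. An unadjusted p of 0.05 gave 5 regions in place of 0. Adding exons, transcript ends and non-coding annotations added no region, an outcome fixed beforehand because no region of those annotations carries the CpG label. The cause of these moves was not tested, apart from the smaller sets that stricter limits leave. No paired analysis was possible because each culture has a single mean in these tables, for which reason no library could be left out either. Depth is unknown.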

Other observations

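Genes induced early by growth signals and growth inhibitors were looked at after the values were seen, so that their choice supports nothing. Fosb, an AP-1 subunit, had 2 CpG island regions listed on 32 kPa. The intronic one had 6.11 on 32 kPa and 5.04 on 0.2 kPa (fold 1.07, FDR = 0.0175 in the authors' deposited table). The one 10.1 kb upstream had 6.09 on 32 kPa and 5.05 on 0.2 kPa (fold 1.03, FDR = 0.0339 in the authors' deposited table). Nr4a1, an orphan nuclear receptor gene, had 7.05 on 32 kPa and 5.95 on 0.2 kPa 20.4 kb upstream (fold 1.10, FDR = 0.00273 in the authors' deposited table). No CpG island region of either gene was listed on plastic, where listing needs a fold of 1 or more. On plastic the 2 Fosb sites still had 5.97 (intronic) and 5.57, and the Nr4a1 site 6.85. Each of these lay above the 0.2 kPa level, so absence from the list is not absence of a difference. The 3 regions of Fos (6.95, 5.93 and 5.28), the 4 of Nr4a2 (4.32 to 5.42) and that of Nr4a3 (8.09) were listed in neither comparison. Regions of Tob2, Id1, Klf15, Sp1 and Mnt were listed on 32 kPa, their folds in the authors' deposited table lying between 1.05 and 1.11. Among chromatin remodeller genes, Arid2 was listed with folds of 1.03 on 32 kPa and 1.0 on plastic, and Arid1b and Chd2 on 32 kPa with folds of 1.0 and 1.02, in the authors' deposited tables. The 3 CpG island regions of Arid1a (5.62, 4.77 and 3.82 on 32 kPa) and the other region of Arid1b (6.81 on 32 kPa) were listed in neither comparison. Some regions of Arid1a and Nr4a2 lay below the lowest listed levels, 4.97 on 32 kPa and 4.94 on plastic. Among CpG island regions reaching those levels, 11.3% overlapped a region listed on 32 kPa and 8.23% one listed on plastic. Not being listed was thus the usual case.

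A stretch of chromosome 12 between 17 and 25 Mb, also picked after its values were seen, held 25 CpG island regions among 122. Of those reaching the lowest listed level, 2 of 10 overlapped a region listed on 32 kPa and 5 of 12 one listed on plastic. Of the stretch's regions of all kinds, 3 of 31 reaching the level overlapped one listed on 32 kPa and 6 of 34 one listed on plastic. The sequences of Gm5784 and Gm38699 that share a run of 52 bases lie there. On chromosome 14, between 3 and 8 Mb, 6 CpG island regions were open, of which 2 reached the lowest listed level on each culture, and both were listed on plastic and neither on 32 kPa. Regions of all kinds there were listed at 2 of 11 on plastic and 0 of 9 on 32 kPa. On chromosome 8, between 19 and 21 Mb, 4 of 9 CpG island regions reached the lowest listed level on each culture, and 0 were listed, as were 0 of the 9 regions of all kinds that reached it. Of the 38 CpG island regions on chromosome X, 14 reached the lowest listed level on 32 kPa, and 0 were listed in either comparison, while 26 of 320 regions of all kinds on that chromosome overlapped a region listed on 32 kPa and 20 of 322 one listed on plastic.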
